A study of Mus musculus with 6 samples.

Results

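The proteasome genes described here are the 50 of 20665 protein-coding genes on chromosomes 1 to 19 whose RefSeq symbol starts with Psma, Psmb, Psmc, Psmd, Psme, Psmf or Psmg and a number. They were chosen by symbol alone, with no measured value. The proteasome is the barrel-shaped protease that degrades ubiquitin-tagged proteins. Its 20S core is a stack of alpha rings (Psma genes) around beta rings (Psmb genes), and the cutting sites are on the beta subunits Psmb5, Psmb6 and Psmb7. A 19S cap of ATPases (Psmc genes) and non-ATPase subunits (Psmd genes) recognises and unfolds the substrates. After interferon signalling, and in immune cells, the cutting subunits are replaced by Psmb8, Psmb9 and Psmb10, which gives the immunoproteasome, and the core can be opened by PA28, a ring of Psme1 and Psme2. In muscle, the proteasome degrades contractile proteins during fibre wasting.

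By these roles, 40 genes were taken as constitutive and 6 as immune (Psmb8, Psmb9, Psmb10, Psme1, Psme2 and the Psme2 copy Psme2b). A further 2 were tissue-specific: Psma8, the alpha subunit of the testis, and Psmb11, the cutting subunit of the thymus. The last 2, Psmc3ip and Psme3ip1, match by symbol but encode proteins that bind a subunit rather than subunits. The same rule matched 1 gene on a sex chromosome, which was not used.

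The marks were mapped by CUT&RUN, where a nuclease guided by an antibody cuts the DNA of marked nucleosomes free, on gastrocnemius muscle of male C57BL/6 mice aged 4 weeks. All mice carried floxed Phf2 alleles (flox/flox): Ctrl mice were Acta1 Cre- and conditional knockout (CKO) mice Acta1 Cre+. Acta1 is a gene of skeletal muscle fibres, and other cells in the muscle are not the target of this Cre. PHF2 is a JmjC-domain protein that binds H3K4me3, the mark of active promoters, and is reported to remove H3K9me2, a mark of repressed chromatin. Ctrl gave 4 of the 6 libraries, namely H3K4me3 (titled wild type), H3K9me2 and 2 inputs, and CKO gave H3K9me2 and 1 input. With 1 library per mark and genotype, differences between genotypes have no replicate check and were not tested. Peak lists measure neither Phf2 RNA nor protein, so its loss was not checked here.

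On chromosomes 1 to 19 the lists held 16066 peaks for H3K4me3, 3595 and 12508 for H3K9me2 in Ctrl and CKO, 2999 and 1277 for the Ctrl inputs and 10683 for the CKO input. Each peak's fold is the authors' value: fragments at the summit over the local background, with 1 added to each. Summit fragments give the depth behind a fold, and the median was 53 for H3K4me3 and 6 to 9 for the other lists. Printed intervals of fragments are exact 95% Poisson intervals and cover counting error only. Of the muscle genes checked, Des, Myod1 and Mb had H3K4me3 peaks (folds of 8.81, 8.95 and 4.99), and none was listed at Acta1, Ckm, Myh4 or Ttn. Among 7 blood and immune cell markers, Cd68 (12.6) and Cd79a (8.46) had a peak, and none was listed at Ptprc, Adgre1, Cd3e, Itgam or Csf1r. Neither the Cd68 nor the Cd79a peak covered a listed start. Counting the gene and 2 kb either side, peaks were listed at 42.9% of these muscle genes and 28.6% of these markers. The share of all protein-coding genes was 65.5%. The tissue holds several cell types, so fewer marked cells and less mark per cell cannot be told apart.

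The cutting subunits are the point where the constitutive and the immune proteasome differ, so the 250 bases before their listed starts are shown for the constitutive Psmb5 and Psmb6 and the immune Psmb8, Psmb9 and Psmb10. Psmb3, a structural beta subunit, is shown because it shared with Psmb6 the lack of an H3K4me3 peak. Sequences are from RefSeq (GRCm38.p6, the assembly of mm10), read 5′ to 3′ towards the start of the gene. Capitals mark matches to the 5 motifs named with the promoter results.
Psmb5 (chr14:54617996-54618245, minus strand): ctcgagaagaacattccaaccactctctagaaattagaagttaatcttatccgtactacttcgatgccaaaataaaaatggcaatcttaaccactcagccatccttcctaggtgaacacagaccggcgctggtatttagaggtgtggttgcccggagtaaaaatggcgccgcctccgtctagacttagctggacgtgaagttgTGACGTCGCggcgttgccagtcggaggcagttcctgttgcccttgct
Psmb6 (chr11:70525107-70525356, plus strand): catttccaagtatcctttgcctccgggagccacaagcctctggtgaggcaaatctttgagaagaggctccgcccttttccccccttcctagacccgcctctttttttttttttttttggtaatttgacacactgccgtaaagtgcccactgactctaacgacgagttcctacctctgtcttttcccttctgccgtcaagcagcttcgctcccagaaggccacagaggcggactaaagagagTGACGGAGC
Psmb8 (chr17:34197945-34198194, plus strand): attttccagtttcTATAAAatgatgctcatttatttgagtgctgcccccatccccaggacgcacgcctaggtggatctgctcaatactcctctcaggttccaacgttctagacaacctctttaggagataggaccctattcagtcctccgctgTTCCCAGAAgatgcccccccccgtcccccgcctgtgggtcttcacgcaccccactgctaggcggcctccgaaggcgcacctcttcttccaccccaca
Psmb9 (chr17:34187331-34187580, minus strand): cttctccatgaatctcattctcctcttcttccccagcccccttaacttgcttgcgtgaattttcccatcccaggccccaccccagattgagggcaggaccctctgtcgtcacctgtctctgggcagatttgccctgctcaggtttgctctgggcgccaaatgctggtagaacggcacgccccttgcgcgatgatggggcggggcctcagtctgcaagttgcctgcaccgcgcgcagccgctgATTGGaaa
Psmb10 (chr8:105938393-105938642, minus strand): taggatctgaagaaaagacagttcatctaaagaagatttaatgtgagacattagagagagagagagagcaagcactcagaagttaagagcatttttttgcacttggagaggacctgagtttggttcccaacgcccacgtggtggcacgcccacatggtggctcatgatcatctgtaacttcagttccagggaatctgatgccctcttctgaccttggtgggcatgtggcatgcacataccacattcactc
Psmb3 (chr11:97703184-97703433, plus strand): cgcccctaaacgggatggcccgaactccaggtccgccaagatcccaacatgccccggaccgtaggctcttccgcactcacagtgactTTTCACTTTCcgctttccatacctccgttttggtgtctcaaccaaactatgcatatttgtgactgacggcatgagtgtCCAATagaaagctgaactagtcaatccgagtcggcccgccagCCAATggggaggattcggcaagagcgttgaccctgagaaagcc
Psmb5 carried TGACGTCGC 47 to 39 bases before its start, and Psmb6 carried TGACGGAGC at bases 9 to 1. Psmb8 carried TATAAA at 237 to 232 and TTCCCAGAA at 97 to 89, Psmb9 carried CCAAT on the other strand at 8 to 4, and Psmb10 carried none of the letters searched. Psmb3 carried CCAAT at 85 to 81 and 43 to 39, and TTTCACTTTC at 163 to 154. The number of CG pairs in these 250 bases was 15 for Psmb5 and Psmb3, 10 for Psmb6 and Psmb8, 12 for Psmb9 and 3 for Psmb10.

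H3K4me3 was listed at nearly all of the family in Ctrl muscle. A peak overlapped the gene or the 2 kb either side by 1 bp or more at 45 of 50 proteasome genes (90%), against 65.5% of all protein-coding genes. The share was 38 of 40 for constitutive genes (95%) and 5 of 6 for immune genes (83.3%). It was 0 of 2 for the tissue-specific genes and 2 of 2 for the interacting ones. Without the interacting genes the count was 43 of 48. The classes differed more in height than in presence. The median fold of the highest peak was 14.2 at constitutive genes (quartiles 12.6 and 15.8), 9.45 at the 5 marked immune genes (range 6.53 to 11.4), and 11.4 over all marked genes (quartiles 8.73 and 14.2). Of the constitutive genes with a peak, 32 of 38 lay above that overall median, and of the immune genes 0 of 5 did. Blood and immune cell markers had H3K4me3 peaks at 2 of 7 genes (28.6%), against 65.5% of all genes, and neither peak covered a listed start. The part of such cells in the values of the immune subunits was not tested.

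**Figure D1:**
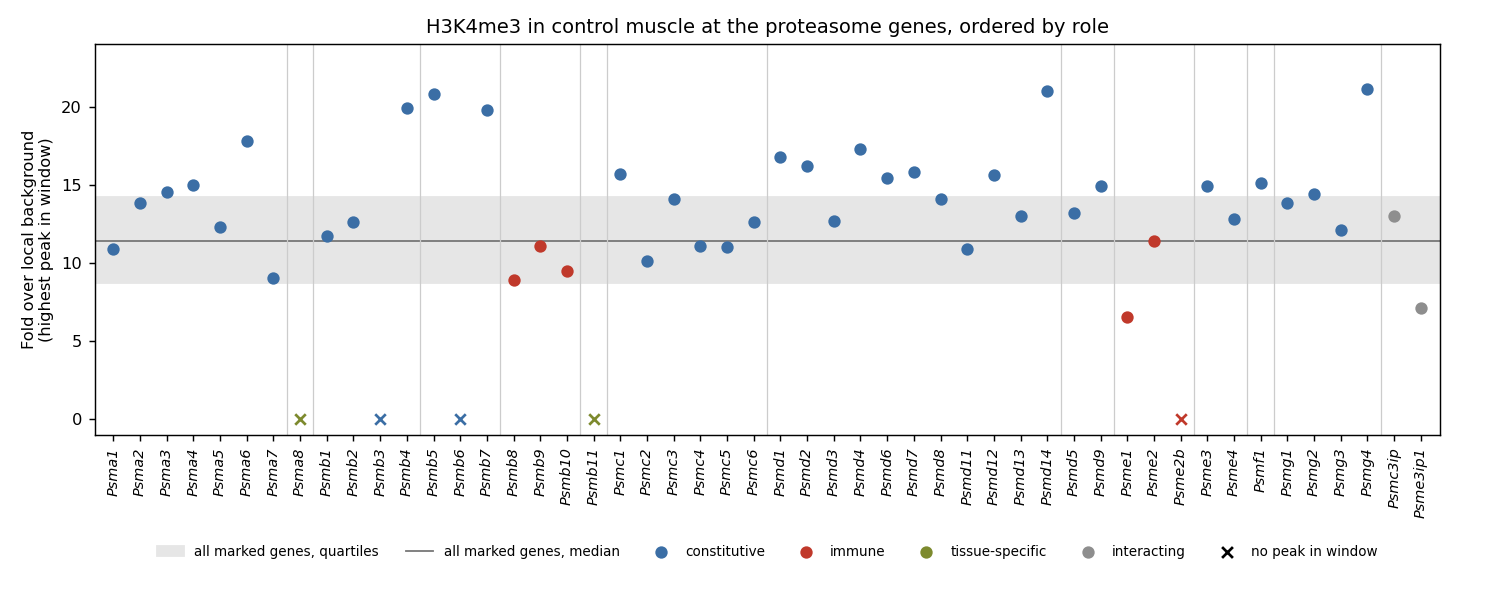
Fold over local background of the highest H3K4me3 peak (y axis) at each of the 50 proteasome genes (x axis, ordered by role, with vertical lines between roles) in the 1 Ctrl library. The grey band and line are the quartiles (8.73 and 14.2) and median (11.4) of all marked genes, crosses at 0 are the 5 genes with no peak, and the red immune genes sit at or below the line while most blue constitutive genes sit above it.

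The catalytic beta subunits held some of the highest and some of the lowest folds of the family. Psmb5, which cuts after hydrophobic residues, had a peak of 488 bp at chr14:54617585-54618072 with a fold of 20.8 and 91 summit fragments (73.3 to 112). Its immune counterpart Psmb8 had a peak of 1050 bp at chr17:34197611-34198660 with a fold of 8.87 and 39 fragments (27.7 to 53.3). The local backgrounds were alike, 3.43 and 3.51 fragments, and the counting intervals of the 2 summits did not overlap. Psmb7, which cuts after basic residues, had a fold of 19.8 and 93 fragments (75.1 to 114) at chr2:38643370-38644044. Psmb10, its counterpart, had 9.45 and 40 fragments (28.6 to 54.5) at chr8:105936917-105938089. Again the backgrounds were close, 3.76 and 3.34, and the intervals did not overlap. The remaining pair went the other way: Psmb9 had a peak at chr17:34187137-34188325 with a fold of 11.1 and 63 fragments (48.4 to 80.6), and Psmb6, the subunit it replaces, had none. Among all marked genes, Psmb5 stood at percentile 98.5 and Psmb7 at 97.3, against 26.2 for Psmb8, 31.3 for Psmb10 and 47.6 for Psmb9. These intervals hold within 1 library and say nothing of the spread between mice.

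Peaks were listed at 3 of the 4 structural beta subunits, which build the ring without a cutting site. Psmb4 had a fold of 19.9 and 100 fragments (81.4 to 122), Psmb2 had 12.6 and 47, and Psmb1 had 11.7 and 78. A lower peak 2 kb or less outside Psmb1 had a fold of 5.58 and 37 fragments. Psmb3 had no peak in its window. All 7 constitutive alpha subunits, whose ring gates the entry to the core, were marked, with folds from 9.01 to 17.8 and a median of 13.8. Psma6 was the highest with 17.8 and 109 fragments, followed by Psma4 (15.0, 124 fragments) and Psma3 (14.5, 110 fragments). Psma7 had the lowest fold of any constitutive gene, 9.01, at the widest peak, 1693 bp, although its 144 fragments (121 to 170) were second in number only to Psmg2. The background under it was 15.1 fragments, against a median of 3.86 at constitutive genes, so a low fold here went with a high summit. That peak also overlapped the neighbouring gene Ss18l1.

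The 19S cap was marked throughout. All 6 ATPases, which unfold the substrate and thread it into the core, had a peak, with folds from 10.1 (Psmc2) to 15.7 (Psmc1) and a median of 11.8, close to the 11.4 of all marked genes. Psmc4 had the fewest fragments of any proteasome gene at its highest peak, 28 (18.6 to 40.5). The 11 non-ATPase subunits stood higher, with a median of 15.6, a range of 10.9 to 21.0, and 10 of 11 above the median of all marked genes. Psmd14, the deubiquitinase that removes the ubiquitin chain, had a fold of 21.0 and 111 fragments (91.3 to 134) at chr2:61711522-61712209. Psmd4, a ubiquitin receptor, had 17.3 with 68 fragments, and the scaffold subunits Psmd1 and Psmd2 had 16.8 and 16.2. Psmd11 was the lowest of the group at 10.9, with 89 fragments. The cap's assembly chaperones Psmd5 and Psmd9 had folds of 13.2 and 14.9.

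Among the activators, the immune genes had the lower folds but not always fewer fragments. Psme1, the PA28 alpha subunit, had the lowest fold of all marked members, 6.53, with 42 fragments (30.3 to 56.8) over a background of 5.58 at chr14:55578178-55578756. Psme2, the beta subunit, had 11.4 with 99 fragments (80.5 to 121) over 7.81 at chr14:55590761-55592233, and Psme2b, a separate Psme2-like gene on chromosome 11, had no peak. The constitutive activators Psme3 and Psme4, which form the nuclear PA28 gamma and PA200, had folds of 14.9 and 12.8. Their 92 (74.2 to 113) and 87 (69.7 to 107) fragments were fewer than at Psme2, but the counting intervals overlapped. The inhibitor Psmf1 had a fold of 15.1. Among the 20S assembly chaperones, Psmg4 had the highest fold of the whole family, 21.1 with 108 fragments (88.6 to 130) at chr13:34162846-34163455. Psmg2 had the most fragments, 180 (155 to 208), at a fold of 14.4, in a peak that also overlapped the gene Cep76. Psmg1 and Psmg3 had folds of 13.8 and 12.1. Psmc3ip, a recombination protein named for binding Psmc3, had 13.0. Psme3ip1 had 7.11, in a peak that also overlapped the genes Rspry1 and LOC115486880. The 3 highest folds, at Psmg4, Psmd14 and Psmb5, therefore came from a chaperone, a cap enzyme and a cutting subunit, and the counting intervals of their fragments overlapped.

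Fold, fragments and width did not order the classes alike. Median summit fragments were 78 at constitutive genes and 42 at immune genes, against 68 over all marked genes, and median local backgrounds were 3.86, 4.75 and 4.45 fragments in the same order. Median width ran in the opposite order, 758 bp at constitutive, 1173 bp at immune and 831 bp at all marked genes. Immune genes were also short, with a median length of 3147 bp against 12879 bp for constitutive genes and 17491 bp for all. Several H3K4me3 peaks were listed at 5 of the 45 marked genes (11.1%), namely Psma3, Psmb1, Psmc2, Psmc6 and Psmd9, against 20% of all marked genes.

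The 5 genes with no H3K4me3 peak fell into both constitutive and restricted classes. Psmb6 (chr11:70525324-70527858) lay 4672 bp from the nearest peak, which overlapped Gltpd2 and had a fold of 12.4 with 33 fragments. Psmb3 (chr11:97703434-97713500) lay 2663 bp from a peak over Pcgf2 with a fold of 7.41 and 104 fragments. Both encode parts of the constitutive core, and they were the 2 of 40 constitutive genes without a peak. In the restricted classes, Psmb11 (chr14:54625310-54629556) was 7238 bp away from the peak of Psmb5, its neighbour on chromosome 14. Psma8 (chr18:14706135-14762301) was 20547 bp from a peak over Taf4b, and Psme2b (chr11:48945345-48946410) was 73208 bp from a peak over Irgm1. A missing entry says only that no peak passed the authors' cutoff, and read coverage at these genes was not analysed here. None of the 3 family pseudogenes on these chromosomes (Psmb6-ps2, Psma5-ps and Psmb5-ps) had a peak in any of the 6 lists. How reads shared with such copies were placed was not tested.

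Constitutive peaks sat just inside the gene. Strand and start were listed for 42 of the 50 genes, and 38 of these had a peak. The summit lay within 500 bp of the nearest listed start at 29 of 31 constitutive genes (93.5%), against 77.5% of 10800 genes, and downstream of it at 26 of 31 (83.9%), against 74%. The median summit was 150 bp into the gene, with 139 bp for all genes. Psma5 was just past the 500 bp limit, at 536 bp. For Psmc6 the highest peak (12.6, 83 fragments) overlapped the gene Styx, 21720 bp from the Psmc6 start, while a peak at its own start had 12.4 and 77 fragments. Psma6 showed which of its listed starts carried the mark: the summit was 126 bp from the inner start and 14477 bp from the outer start.

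Immune summits were spread more widely, and all but 1 lay upstream. Relative to the start, with negative values upstream, the summit was at -437 bp for Psmb8, -560 bp for Psmb9, -776 bp for Psme2 and -45 bp for Psme1. Psmb10 differed, with its summit 1210 bp inside the gene and a peak from 303 to 1475 bp past the start, so that it was the 1 immune gene whose peak did not cover a listed start. In all, 2 of 5 immune summits lay within 500 bp of a start. Neighbouring genes were common at the immune peaks. Another gene lay within 2 kb of the peak at 5 of 5 immune genes, 11 of 38 constitutive genes (28.9%) and 30.3% of all marked genes. The Psmb9 peak overlapped Tap1, a subunit of the peptide transporter that carries proteasome products into the endoplasmic reticulum, and the Psme2 peak overlapped Rnf31, a ubiquitin ligase subunit. Lcat lay near the Psmb10 peak, Fitm1 near the Psme1 peak and Tap1 near the Psmb8 peak. Which gene of such a pair a peak belongs to cannot be told apart in these lists.

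**Figure D2:**
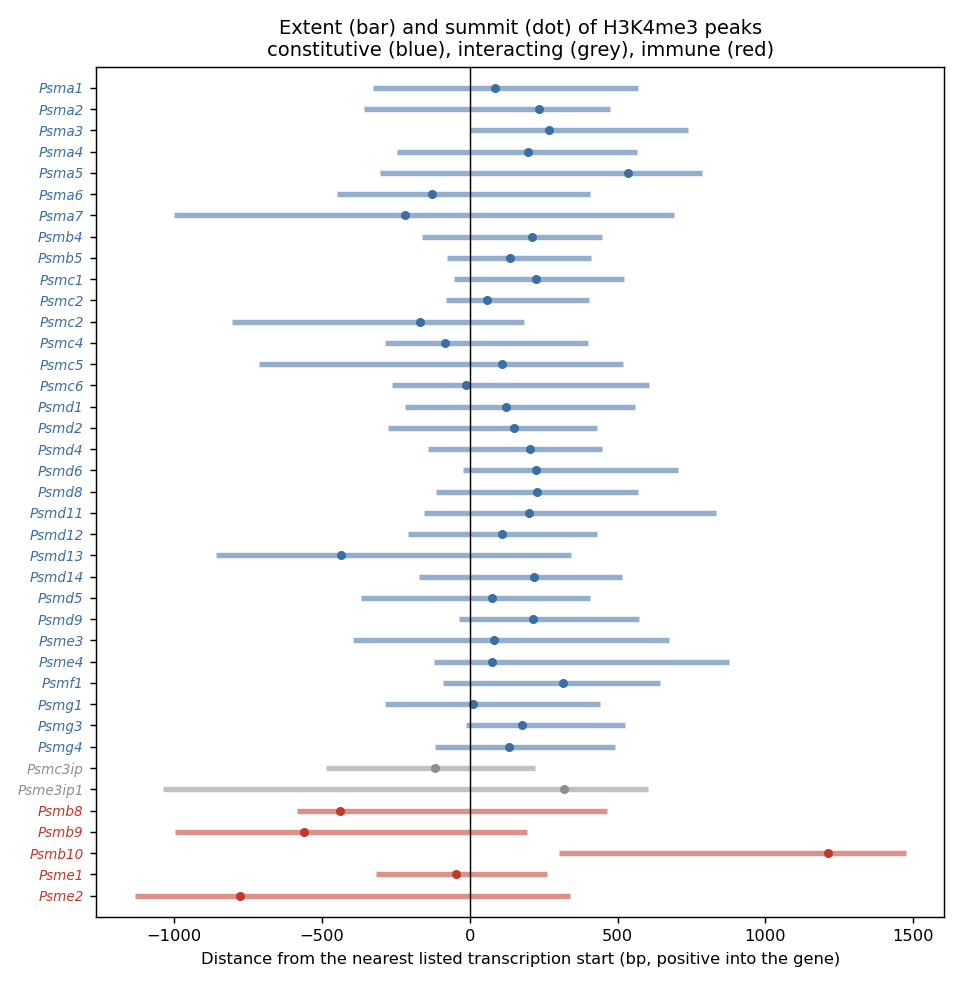
Extent (bars) and summit (dots) of H3K4me3 peaks in Ctrl muscle relative to the nearest listed start, in bp with positive values into the gene, for genes with a listed start (1 row per peak that lies near the start). Most blue constitutive dots lie between the start and 500 bp inside, grey rows are the interacting genes, and red immune dots lie at -437, -560, 1210, -45 and -776 bp.

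Promoters of the classes differed in their content of CG pairs, with overlapping ranges. In the window from 250 bases before to 50 after the start, matched for 42 members, the ratio of observed to expected CG pairs had a median of 0.796 at 33 constitutive genes (0.185 to 1.12) and 0.532 at 6 immune genes (0.0904 to 0.6). The median over 16457 promoters was 0.597. Psmb5 had a ratio of 0.999, Psmb9 0.6, Psmb8 0.523 and Psmb10 0.192. This follows the order of their H3K4me3 folds only in part, since the fold of Psmb10 was above that of Psmb8. The Psmb10 ratio belongs to a listed start that its peak did not cover, as the peak began 303 bp past it. It is therefore not the ratio of the marked site. The unmarked Psmb6 and Psmb3 had 0.727 and 0.796, at percentiles 62 and 70 of all promoters, both above the median. The unmarked Psme2b and Psmb11 had 0.0904 and 0.165. When all promoters were split by this ratio into 3 equal groups, 20.7% of genes were marked in the lowest, 78.4% in the middle and 97.7% in the highest. Members were marked at 2 of 4, 17 of 18 and 19 of 20 in the same groups. The 2 marked members of the lowest group were Psmb10 and Psma6, whose peaks lay outside the windows measured. Psma6, with 0.185 at its outer start, had 0.697 at the inner start that carried its peak.

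**Figure D3:**
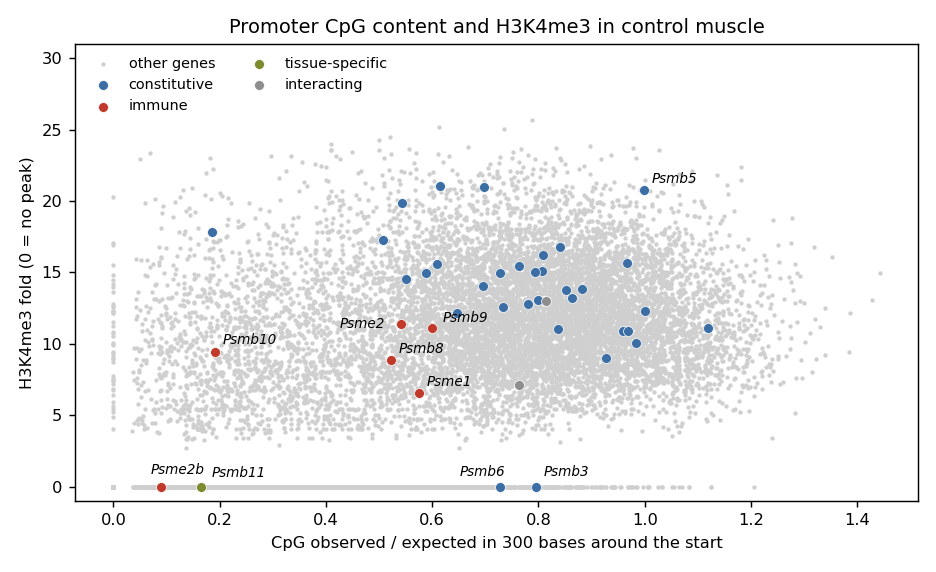
Observed over expected CG pairs in the 300 bases around the start (x axis) and fold of the highest H3K4me3 peak (y axis, 0 where no peak was listed) for 16457 genes, with members in colour and the genes discussed in the text named. The immune genes lie at 0.6 or less on the x axis and at 11.4 or less on the y axis, and Psmb6 and Psmb3 lie at 0 among genes rich in CG pairs.

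The motifs were searched by their letters on both strands of the same 300 bases. TGACNNNGC, the antioxidant response element bound by Nfe2l1 and Nfe2l2, was found in 13.2% of all promoters. Of these factors, Nfe2l1 raises proteasome genes when the protease is blocked. The element was present in 6 of 33 constitutive promoters (18.2%), those of Psmb5, Psmb6, Psmc6, Psmd9, Psmd12 and Psme4, and in 0 of 6 immune ones. CCAAT was found in 39.1% of all, in 11 of 33 constitutive and in 1 of 6 immune promoters (Psmb9). TATAAA was found in 13.5% of all, at Psmb4, Psmd1 and Psmd6 among the constitutive and at Psmb8 among the immune genes. The interferon-stimulated element, found in 3.42% of all, was present at 4 constitutive genes (Psmb3, Psmd4, Psmd9 and Psmg4) and at 1 immune gene (Psme1). TTCNNNGAA, the interferon gamma activated site, was found in 7.88% of all, at Psmd2 and Psmg1 and at the immune Psmb8. Interferon motifs were therefore not limited to the immune class in these windows. A match is a run of letters, and no factor's binding was measured.

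H3K9me2 was listed at few of these genes. In Ctrl, 0 of 50 had a peak, against 5.38% of all protein-coding genes. In CKO, 5 of 50 had one (10%), against 16.0% of all, and these were 4 constitutive genes, the testis subunit Psma8 and 0 of 6 immune genes. The peaks were small: Psma4 had a fold of 5.83 with 8 fragments, Psmd6 5.63 with 8, Psma7 4.64 with 7 and Psmg2 4.53 with 6. Each of these 4 overlapped the H3K4me3 peak listed at the gene in Ctrl. At Psma4, Psma7 and Psmg2 that H3K4me3 peak also overlapped a neighbouring gene (AY074887, Ss18l1 and Cep76). Psma8 had the highest, 6.49 with 11 fragments (5.49 to 19.7) at chr18:14732774-14733161, in the gene body and away from any H3K4me3 peak. All 5 overlapped a peak of the CKO input. Once H3K9me2 peaks that overlap any input peak were removed, 0 members remained in either genotype, against 3.26% of all genes in Ctrl and 9.82% in CKO. That 0 in CKO rests on the CKO input: with the peaks of the Ctrl inputs alone removed, Psma4, Psma7, Psma8 and Psmd6 kept theirs (4 of 50, against 13.8% of all genes). The CKO list was also longer over the whole genome, and 5 genes against 0 from 1 library each has no replicate check.

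**Figure D4:**
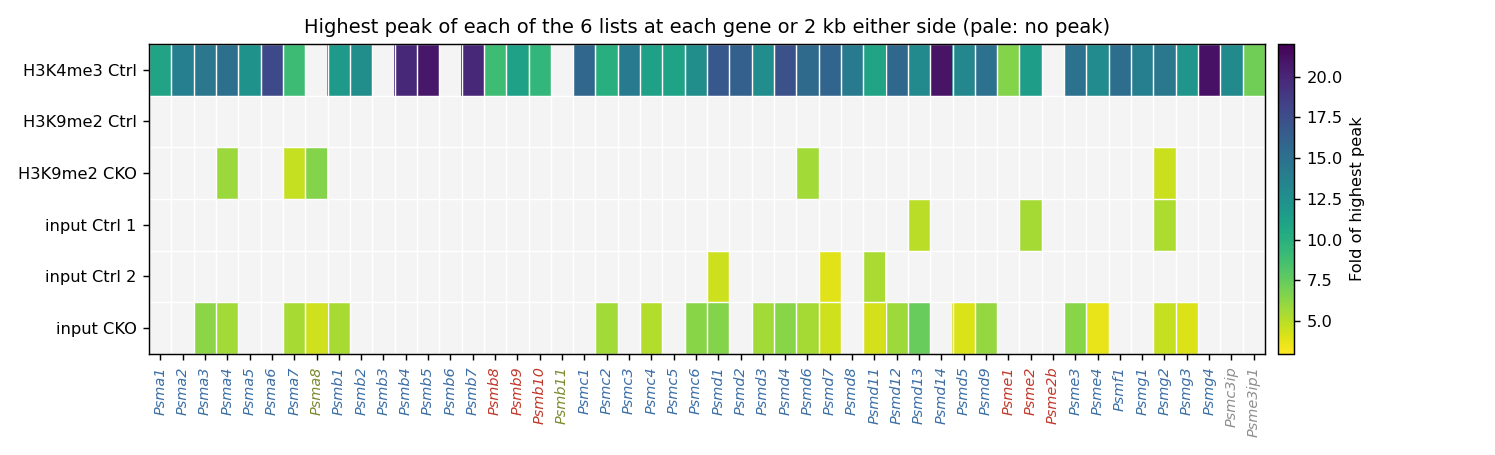
Fold of the highest peak (colour scale) of each of the 6 lists (rows) at each proteasome gene or within 2 kb of it (columns, constitutive names in blue, immune in red, tissue-specific in green, interacting in grey). Pale cells have no peak: H3K9me2 in Ctrl is empty, H3K9me2 in CKO has 5 entries, and the CKO input has 22.

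Input libraries also held peaks at proteasome genes. In the CKO input 22 of 50 genes had a peak (44%), against 34.8% of all genes, with 21 of 40 constitutive (52.5%), 0 of 6 immune and 1 of 2 tissue-specific genes. Of its 23 peaks, 21 overlapped an H3K4me3 peak, with the exceptions at Psma8 and Psmg3. Among genes marked by H3K4me3 the background share was 48.1%, and the shares were 21 of 45 for members (46.7%), 21 of 38 for constitutive genes (55.3%) and 0 of 5 for immune genes. The family's share was thus near that of other marked genes. Of the 11 non-ATPase subunits of the cap, all marked by H3K4me3, 8 had a CKO input peak (72.7%), against that background of 48.1%. The highest folds were at Psmd13 (7.42, 12 fragments), Psmd1 (6.54, 8 fragments) and Psmd4 (6.41, 8 fragments), and over all 23 peaks the fragments ran from 4 to 12.

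The Ctrl inputs marked fewer members. Ctrl input 1 had peaks at 3 of 50 (6%), against 10.1% of all genes: Psme2 (5.53, 10 fragments), Psmg2 (5.35, 7 fragments) and Psmd13 (4.99, 6 fragments). Ctrl input 2 had peaks at another 3 (6%), against 4.56%: Psmd11 (5.41, 7 fragments), Psmd1 (4.42, 5 fragments) and Psmd7 (3.85, 4 fragments). No member was shared by these 2 inputs, and 5 of the 6 also had a CKO input peak, the exception being Psme2. Psme2 was the 1 immune gene with an input peak in any list. In the other direction, the H3K4me3 peaks at members, 50 in all, overlapped a CKO input peak in 21 cases (42%), against 33.5% of all H3K4me3 peaks. The latter share counts peaks at any place, not only at genes. Counted by marked gene, the shares were 46.7% of members and 48.1% of all. In all, 23 members had an H3K4me3 peak and no entry in another list, and 4 had no peak in any list: Psmb3, Psmb6, Psmb11 and Psme2b.

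**Figure D5:**
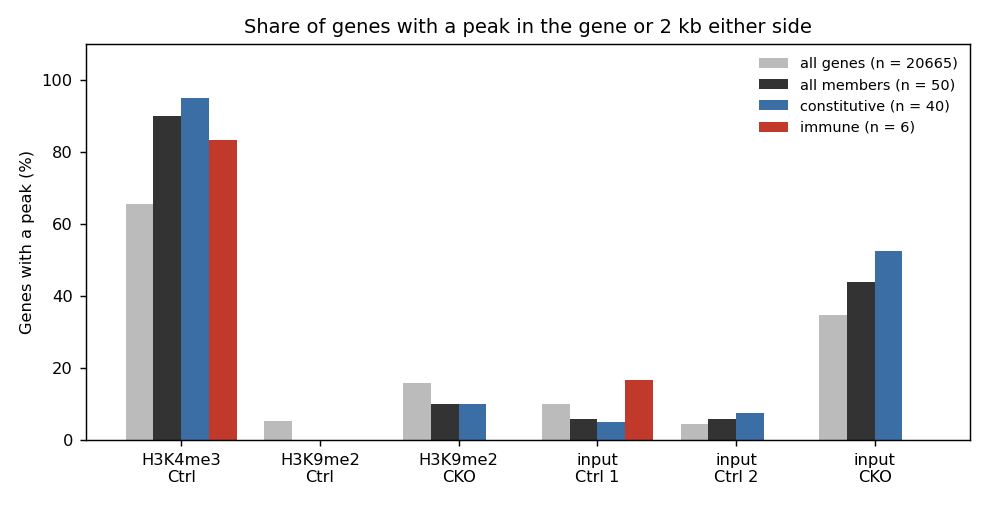
Share of genes with a peak in the gene or 2 kb either side (y axis, percent) in each of the 6 lists (x axis), for all protein-coding genes, all members, constitutive members and immune members, with 1 library per list and no error bars. Constitutive members stand at 95% for H3K4me3 and 52.5% for the CKO input, and immune members at 83.3% and 0%.

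Genes that act with the proteasome but fall outside the symbol rule were all marked. Each of the 19 had an H3K4me3 peak, against 65.5% of all genes, with a median fold of 11.7 (6.43 to 18.9) and 105 fragments. The highest was Sem1, a small cap subunit, at 18.9, followed by Ngly1, which activates Nfe2l1, and Usp14, a deubiquitinase of the cap, both at 17.2. The maturation factor Pomp had 14.7 and Nfe2l1 had 11.7. H3K9me2 peaks were listed at 3 of the 19 in Ctrl (15.8%) and 6 in CKO (31.6%), against 5.38% and 16.0% of all genes. The windows span the gene, and the median length was 29151 bp for these 19 against 17491 bp for all genes. The part of length in these shares was not tested. After removal of input peaks, H3K9me2 peaks were listed at 1 in Ctrl and 2 in CKO, against 3.26% and 9.82%. Those 2 were Ecpas (4.22), which tethers proteasomes, and Zfand5 (5.66), which stimulates degradation. The CKO input had peaks at 17 of the 19, against 48.1% of all genes with an H3K4me3 peak. Compared by their medians, these genes had more fragments and a lower fold than the constitutive subunits, over a background of 8.43 against 3.86.

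Antigen presentation and interferon genes had a median H3K4me3 fold of 11.1, near the 11.4 over all marked genes. The medians of the immune and the constitutive subunits were 9.45 and 14.2. Of 18 genes, 15 had a peak (83.3%, against 65.5% of all genes), with a median of 63 fragments. Erap1, which trims peptides made by the proteasome, had 21.5, and the chaperone Calr had 14.4. Gbp2, an interferon-induced GTPase, Irf9 and Ciita, regulators of interferon-induced and MHC class II genes, had none. Tap1 had 11.1, which is the peak it shares with Psmb9. H3K9me2 peaks were listed at 0 of the 18 in Ctrl, against 5.38% of all genes, and at 3 in CKO (16.7%), near the 16.0% of all genes. After removal of input peaks, 2 of these 3 remained in CKO, at Calr (4.47) and Erap1 (5.83), against 9.82% of all genes. These lists were described by counts and medians, and no test of a difference from the proteasome genes was made.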

How the data were processed

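Peak lists of 6 CUT&RUN libraries were used, grouped by the labels' titles and genotypes. The submitters' processing notes name Bowtie2, MACS2 and the build mm10. Not given in the sources used here are versions, input preparation, any control used in calling and whether libraries came from separate mice. The deposited columns hold, per peak, the authors' fold (a linear ratio of summit to local background), its p-value and q-value, both as −log10, and a score. The deposited score was −log10 q times 10 without decimals for nearly all peaks. A summit offset, deposited too, placed the summits. The lowest deposited −log10 q was 1.3 to 1.34 in each list. All peaks are narrow ones, while H3K9me2 can spread over broad domains.

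Summit fragments were recovered from the fold and the p-value, matched within 0.1%, for 99.45% to 100% of peaks, and the steps were tested on simulated data. Genes and promoters came from RefSeq (GRCm38.p6). The gene table gives no strand, and 42 of 50 members matched a promoter. Those without one were Psma8, Psmb1, Psmb2, Psmb7, Psmc3, Psmd3, Psmd7 and Psmg2. The members, gene lists and rules were chosen with earlier results of these data known. Named with values were immune and unmarked members, the 3 highest and 3 lowest by H3K4me3 fold, and members with an H3K9me2 peak. The 3 highest per input and some, not all, neighbours of these members' peaks were named too. Other members are given to complete their role. No p-value was computed. Alternatives were windows of 1 and 5 kb, gene ends or gene bodies only, q of 1e-05 or less, peaks not under their list's median fold, peak centres, removal of input peaks, the same without 1 of the Ctrl inputs, and, chosen after seeing the data, leaving out the CKO input or the interacting genes. Scripts ran in Python 3.11.15 with scipy 1.17.1, numpy 2.4.6, pandas 2.3.3 and matplotlib 3.10.9.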

Additional observations from a re-analysis of the deposited data

How the results depend on the processing

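Depth limits the H3K9me2 and input values most, since their peaks at members rest on 4 to 12 fragments. With q of 1e-05 or less, members with a peak numbered 1 for H3K9me2 in CKO (of 5), 0 for each Ctrl input (of 3) and 6 for the CKO input (of 22), against 6.19%, 0.9%, 0.368% and 6.71% of all genes. When only peaks no lower than their list's median fold were kept, they numbered 3 for H3K9me2 in CKO and 1 for Ctrl input 2, against 8.15% and 2.27% of all genes, and immune genes with H3K4me3 numbered 2 of 5, with Psmb8, Psmb10 and Psme1 lost. Under that setting 40 of 50 members kept an H3K4me3 peak, against 41.5% of all genes. Removal of peaks overlapping any input peak left H3K4me3 at 28 members and 22 constitutive genes, against 40.3% of all genes, and 17 members lost every peak. At 5 kb, Psmb6 and Psmb3 gained an H3K4me3 peak, namely their nearest ones over Gltpd2 and Pcgf2. This made 47 of 50 members, against 67.5% of all genes. At the same width 1 member, Psmd13, gained an input-free H3K9me2 peak in CKO (chr7:140902189-140902606, fold 3.89), against 11.0% of all genes with one. With gene ends only, Psmf1 and Psma6 lost their H3K4me3 peak, which left 43 of 50 members, against 61.0% of all genes. The other 76 recomputed values stayed within 1.5 times the main count or, for the median constitutive fold (13.9 to 14.4), within the spread over genes. Leaving out either Ctrl input kept input-free H3K9me2 at 0 members in both genotypes. Leaving out the CKO input, an alternative chosen after seeing the data, gave 0 members in Ctrl and 4 in CKO (Psma4, Psma7, Psma8 and Psmd6), against 4.44% and 13.8% of all genes.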
